A study of Mus musculus with 6 samples.

Results

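The genes described here are the core autophagy machinery and the receptors that deliver cargo to it, measured in the livers of 6 mice. The list names 40 genes. Members were chosen by function: each had to have an array probe set paired with that gene symbol alone, and 38 of 40 had one, out of 18193 genes in all. Bnip3l was left out because its 3 probe sets were also paired with a pseudogene, and Optn was not analysed here. The mice were male, 6 weeks old and of the C57BL/6 background. In 3 of them (KO 1 to KO 3) p14 had been deleted conditionally in the liver, and 3 controls (WT 1 to WT 3) were labelled wild type for p14. p14 is the product of Lamtor2, a subunit of the Ragulator complex that holds mTORC1 and MEK-ERK signalling on late endosomes and lysosomes. The promoter that drove the deletion, and whether the controls carried a conditional allele, are not given in the sources used here. Each mouse gave 1 Affymetrix array of whole-liver RNA, so fewer cells of a type and less RNA per cell cannot be told apart.

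Macroautophagy wraps cytoplasm in a double membrane and carries it to the lysosome. The ULK kinase complex starts the process, a phosphatidylinositol 3-kinase complex marks the membrane, and lipid transfer proteins enlarge it. A pair of ubiquitin-like conjugation systems then attaches proteins of the ATG8 family (LC3 and GABARAP) to the membrane, where cargo receptors dock. When nutrients are plentiful, mTORC1 restrains ULK1 and keeps the transcription factors TFEB and TFE3, which act on autophagy and lysosomal genes, out of the nucleus. In the liver, autophagy supplies amino acids and lipids during fasting and removes aggregates and mitochondria.

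MiT/TFE factors bind a DNA element whose core is CACGTG, so stretches near the members' start sites are shown with that core in capitals. RefSeq's promoter table (build GRCm38.p6, 250 bases before to 50 after each start) held 32 of the 40 genes. CACGTG, which reads the same on both strands, was in a window of 5 of these 32 genes (15.6%) and of 8.09% of all 27025 genes in that table. The longer TCACGTG, searched on both strands and always containing CACGTG, was in 3 of 32 (9.38%) and in 4.29% of all genes. Member windows were richer in G and C, with a median of 59.4% before the start against 52.4% for all windows. In Atg14 the core began at -1 from the start site and so ran across it, while the other cores lay before the start. The windows with the core belonged to Atg7, Atg3, Atg5, Atg14 and Bnip3, each printed 5′ to 3′ on the gene's strand with 12 bases on either side.
Atg7 (chr6:114670952-114670981, + strand): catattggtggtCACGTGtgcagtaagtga
Atg3, farther from the start (chr16:45158723-45158752, + strand): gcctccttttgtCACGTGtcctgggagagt
Atg3, nearer the start (chr16:45158746-45158775, + strand): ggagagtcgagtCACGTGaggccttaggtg
Atg5 (chr10:44268313-44268342, + strand): cggagcgcttgcCACGTGgtcttggtgacg
Atg14 (chr14:47568418-47568447, - strand): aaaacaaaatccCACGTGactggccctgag
Bnip3 (chr7:138909597-138909626, - strand): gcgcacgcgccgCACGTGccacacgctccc

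Map1lc3b and Sqstm1 encode the LC3B protein and the p62 receptor, both widely used as markers of autophagy, and their values are given in detail further on. The 250 bases before their start sites are shown because neither holds CACGTG, which says only that these letters are not in this window.
Map1lc3b (chr8:121590188-121590437, + strand): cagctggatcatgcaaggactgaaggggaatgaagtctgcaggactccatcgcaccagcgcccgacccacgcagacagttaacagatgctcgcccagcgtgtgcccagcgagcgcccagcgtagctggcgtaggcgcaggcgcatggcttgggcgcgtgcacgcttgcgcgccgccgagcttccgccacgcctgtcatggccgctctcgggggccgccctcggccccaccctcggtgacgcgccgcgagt
Sqstm1 (chr11:50210821-50211070, - strand): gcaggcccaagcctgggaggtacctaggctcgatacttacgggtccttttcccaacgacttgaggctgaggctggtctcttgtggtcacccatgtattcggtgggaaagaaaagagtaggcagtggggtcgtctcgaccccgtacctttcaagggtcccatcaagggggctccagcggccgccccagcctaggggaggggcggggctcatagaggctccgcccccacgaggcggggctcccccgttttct

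The labels were checked on the targeted gene. Lamtor2 measured 10.08, 10.19 and 10.11 on the KO arrays and 11.32, 11.29 and 11.35 on the WT arrays, a difference of -1.19 on the log2 scale (limma adjusted p = 0.0104). Hepatocyte markers such as Alb were bright on every array, with list means over 13 genes of 14.51 to 14.65 in KO and 14.38 to 14.50 in WT. Of these 13 genes, 6 were lower in KO by the fitted difference, and the median difference was 0.03. Macrophage, endothelial and stellate cell lists lay lower on the KO arrays, with ranges that did not overlap. All 15 Kupffer cell and macrophage markers past the filter were lower in KO by the fitted difference, with list means of 8.14 to 9.41 in KO and 9.71 to 9.84 in WT. The ranges were 8.81 to 9.23 and 9.36 to 9.49 for 12 endothelial markers, of which 10 were lower in KO. For 12 stellate cell markers they were 9.03 to 9.39 and 9.40 to 10.10. Here KO 3 and WT 1 nearly met, and the highest value was that of WT 2. Of the 11 stellate cell markers past the filter, 10 were lower in KO. The signal of 18S rRNA controls was 8.50 to 9.24 in KO and 7.77 to 8.44 in WT, and the 3 prime minus 5 prime difference of pyruvate carboxylase was 3.51 to 3.58 against 3.99 to 4.85. For each of these 6 measures the exact two-sided permutation p was 0.1, the smallest this design gives (0.15 after Benjamini-Hochberg adjustment over 9 measures). Biliary markers (3.11 to 3.17 in KO, 3.11 to 3.20 in WT) and lymphocyte markers (3.09 to 3.17, 3.10 to 3.37) overlapped, with exact permutation p of 0.9 and 0.3. Skeletal muscle markers averaged 10.55 on WT 2 and 2.57 to 2.67 elsewhere. The part of these differences in the members' values was not tested.

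No autophagy gene passed the test between KO and WT. All values are log2 expression levels, and a difference is KO minus WT. The test was limma's, with the threshold for a call set at an adjusted p under 0.05 (Benjamini-Hochberg). It covered 10009 genes, those reaching 4 or more on no fewer than 3 of the 6 arrays. All 38 members lay above that level on all 6 arrays, as did 97.5% of the genes tested. Of the members 0 were called, against 17 of 10009 genes (0.17%). The members' limma adjusted p ran from 0.24 to 0.976. At an unadjusted p under 0.05 there were 6 of 38 members (15.8%), 3 higher and 3 lower in KO. Over all genes tested the share was 14.5%, with 4.32% higher and 10.1% lower. The KO and WT arrays did not overlap for 10 of 38 members (26.3%). Over all genes the share was 20.5%. With no filter on low values the members' counts were the same, while the shares of all genes were 7.39% and 12%. Those shares are over 18193 genes, many of them too dim to pass the filter that all 38 members passed, so they are not a like comparison.

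Differences were small in both directions. By the fitted difference 20 members were above 0 and 18 below, with a median of 0.01, while 41.6% of all genes tested were above 0 and their median was -0.04. The differences ran from -0.47 for Ulk1 to 0.41 for Uvrag and Pik3r4 lay at -0.41, so that no member's fitted difference reached 1.5-fold. The median size of the difference, with the sign dropped, was 0.132 for members and 0.132 for all genes. On the probe sets used, the whole 95% interval of the difference lay within 1.5-fold either way for 30 of 38 members. The same held for 6913 of 10009 genes tested. The 8 members with wider intervals were Ulk1, Ulk2, Pik3r4, Uvrag, Wipi1, Atg10, Map1lc3a and Gabarapl1. Within groups the median SD was 0.117 for members and 0.148 for all genes, with the tightest member Atg12 at 0.0129 and the widest Ulk1 at 0.283.

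**Figure D1:**
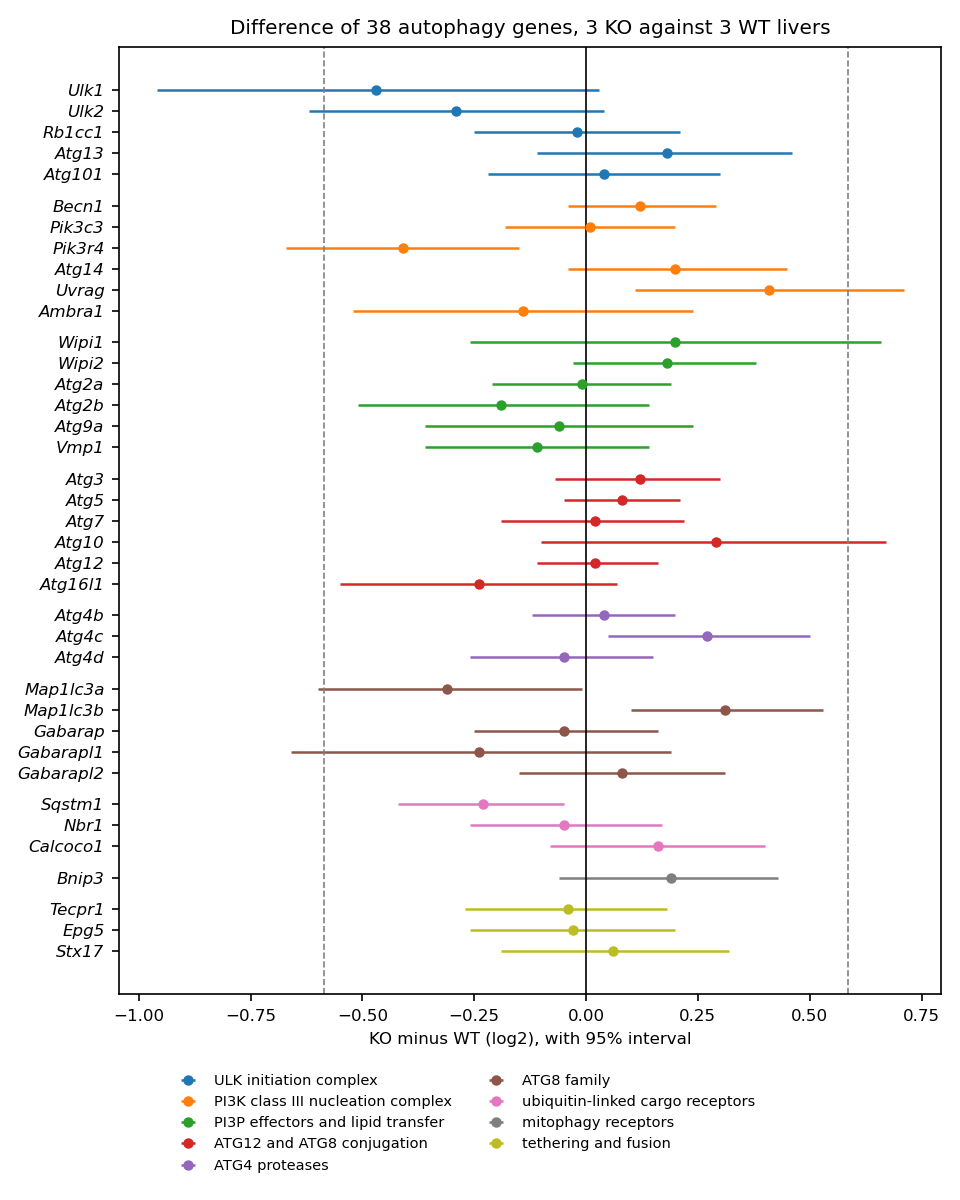
Difference between 3 KO and 3 WT livers for 38 autophagy genes, ordered by role. The x axis is KO minus WT on the log2 scale, points are fitted differences, bars are 95% intervals from limma and dashed lines mark a 1.5-fold difference. The points lie between -0.47 and 0.41, and for 30 genes the whole bar is inside the dashed lines. Over all genes tested this held for 6913 of 10009.

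**Figure D2:**
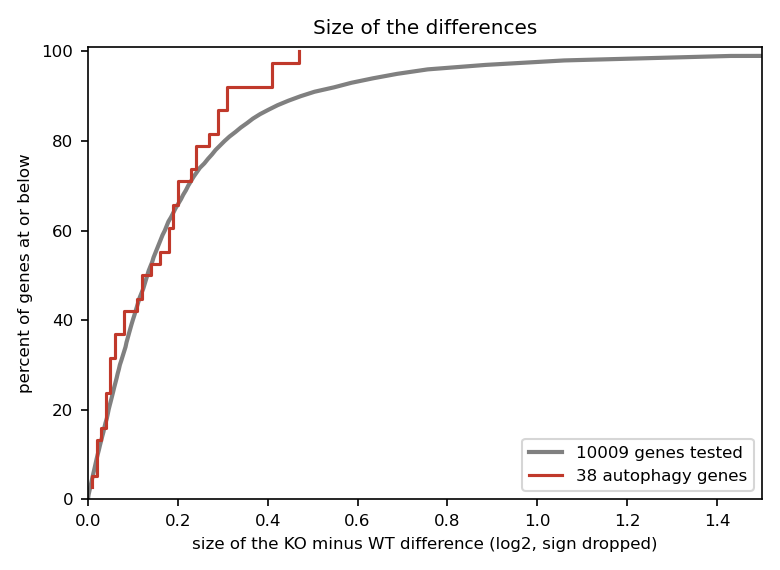
Cumulative share of genes (y axis, percent) by the size of the KO minus WT difference on the log2 scale with the sign dropped (x axis, cropped at 1.5). The line of the 38 autophagy genes follows that of all 10009 genes tested up to a median of 0.132 in both, and it ends at 0.47 for Ulk1.

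Of the 5 genes of the ULK complex 3 lay below 0 by the fitted difference, and 0 were called in limma. Ulk1, the kinase that mTORC1 restrains, measured 10.38, 10.16 and 10.91 on KO 1 to KO 3 and 11.04, 10.84 and 10.97 on WT 1 to WT 3. KO 1 and KO 2 lay below every WT array, while KO 3 lay among them, so the groups overlapped. The difference was -0.47 with a 95% interval from -0.96 to 0.03 (SE 0.20, n = 3 each, limma adjusted p = 0.354). Without KO 3 the difference of Ulk1 was -0.68, and leaving out WT 2 as well gave -0.74, neither passing limma's threshold. Without KO 2 it was -0.31. Ulk2, its paralog, measured 9.87, 10.33 and 10.27 in KO and 10.39, 10.47 and 10.47 in WT. Every KO array was below every WT array, although KO 2 and WT 1 were close and KO 1 stood lowest. The difference of Ulk2 was -0.29 with an interval from -0.62 to 0.04 (limma adjusted p = 0.378), and it was -0.15 without KO 1.

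On the probe sets used, the partners of the kinases were nearer to 0. Atg13, the adaptor that mTORC1 also phosphorylates, was at 8.29 ± 0.18 in KO livers and 8.11 ± 0.11 in WT livers (SD, n = 3), a difference of 0.18. Rb1cc1, the scaffold FIP200, differed by -0.02 with an interval from -0.25 to 0.21. Atg101, which stabilises ATG13, differed by 0.04. The further probe set of Atg13 past the filter differed by 0.35 with overlapping groups. That of Rb1cc1, given below, differed by 0.54 with groups apart. On the probe sets used, none of the 5 genes of this complex had an unadjusted p under 0.05 in limma.

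Among genes of the class III phosphatidylinositol 3-kinase complexes, 2 of 6 had an unadjusted p under 0.05 in limma, in opposite directions. Pik3r4 encodes the regulatory subunit VPS15 that is shared by all forms of the complex, and it had the smallest p of any member. It measured 7.40, 7.32 and 7.20 in KO and 7.57, 7.71 and 7.87 in WT. All KO arrays were lower than all WT arrays, with KO 1 and WT 1 the nearest pair. The KO level was 75.2% of the WT level, a difference of -0.41 with an interval from -0.67 to -0.15 (SE 0.10, limma adjusted p = 0.24). Its single probe set carries a suffix for probes that can match several transcripts.

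Uvrag encodes the subunit that directs the complex to endosomes and late autophagosomes. It measured 10.47, 10.38 and 10.04 in KO and 9.91, 9.89 and 9.87 in WT. The WT arrays lay within a narrow range, KO 1 and KO 2 stood well above it, and KO 3 was only a little higher. The KO level was 133% of WT, a difference of 0.41 with an interval from 0.11 to 0.71 (SE 0.12, limma adjusted p = 0.272). Uvrag was the only member called in any of the 18 alternatives run, and then only without KO 3, where it differed by 0.54 (limma adjusted p = 0.0471) and 140 genes were called in all. Over the 18 alternatives its limma adjusted p ran from 0.0471 to 0.601.

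Atg14, which takes UVRAG's place in the complex that acts at the start of autophagy, measured 8.50, 8.67 and 8.39 in KO and 8.42, 8.30 and 8.23 in WT. KO 3 lay just below WT 1, so the groups overlapped, and the difference was 0.20 (limma adjusted p = 0.396). Becn1, the scaffold Beclin 1, was at 10.18 ± 0.04 in KO livers and 10.06 ± 0.08 in WT livers (SD, n = 3), a difference of 0.12 with an interval from -0.04 to 0.29. Pik3c3, the catalytic subunit VPS34, differed by 0.01 with an interval from -0.18 to 0.20. Ambra1, a regulator of Beclin 1, differed by -0.14, with KO 3 the lowest array at 6.57.

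**Figure D3:**
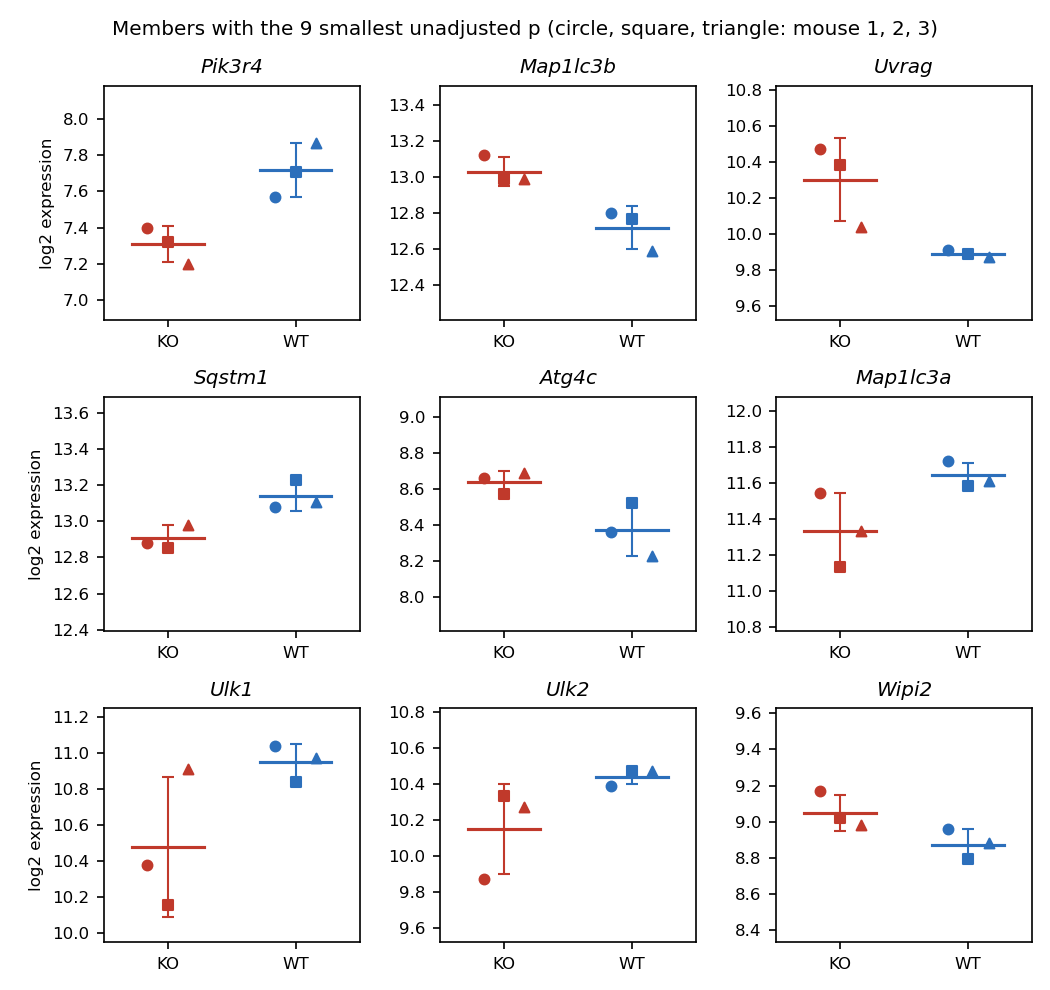
Log2 expression (y axis, a span of 1.3 in every panel) of the 9 members with the smallest unadjusted p, by group. Points are mice, horizontal lines are means and bars are the SD of 3 arrays. The groups are apart in every panel except Ulk1, where KO 3 reaches 10.91 and lies among the WT arrays.

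Proteins that read the lipid mark or move lipid to the growing membrane showed no member at an unadjusted p under 0.05 in limma. Wipi2, which recruits ATG16L1 to the mark, measured 9.17, 9.02 and 8.98 in KO and 8.96, 8.79 and 8.88 in WT. The arrays did not overlap, yet KO 3 and WT 1 nearly met, and the difference was 0.18 (limma adjusted p = 0.378). Wipi1, its relative, measured 8.32 on KO 1 and between 7.58 and 7.80 in WT mice, with KO 2 and KO 3 at 7.68 and 7.76. KO 1 alone stood apart, and the difference of 0.20 had an interval from -0.26 to 0.66. Atg2b, a lipid channel protein, differed by -0.19 and its paralog Atg2a by -0.01. Atg9a, the scramblase that seeds the membrane, differed by -0.06, and Vmp1, a scramblase of the endoplasmic reticulum, by -0.11.

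Most genes of the conjugation systems lay near 0. Atg7, the shared E1-like enzyme, differed by 0.02 with an interval from -0.19 to 0.22, and Atg12, the ubiquitin-like protein itself, by 0.02 with an interval from -0.11 to 0.16. Atg5, the partner to which ATG12 is joined, measured 10.70, 10.73 and 10.71 in KO and 10.64, 10.62 and 10.64 in WT. On this probe set the arrays did not overlap although the difference was only 0.08 (limma adjusted p = 0.511), the SD being 0.01 in each group. On the further probe sets of Atg5 the groups overlapped, with differences of -0.13 and -0.08 and a KO SD of 0.18 and 0.27. Atg3, the E2-like enzyme for ATG8 proteins, differed by 0.12.

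Atg10, the E2-like enzyme for ATG12, measured 5.99, 6.52 and 6.04 in KO and 5.98, 5.89 and 5.82 in WT. Only KO 2 stood clear of the WT arrays, and without it the difference of 0.29 became 0.12. Atg16l1, which places the conjugate on the membrane, was at 9.24 ± 0.14 in KO livers and 9.48 ± 0.19 in WT livers (SD, n = 3), a difference of -0.24 with overlapping groups (limma adjusted p = 0.408).

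Among the ATG4 proteases, which trim ATG8 proteins before conjugation and free them afterwards, Atg4c measured 8.66, 8.57 and 8.69 in KO and 8.36, 8.52 and 8.23 in WT. Each KO array was above each WT array, with WT 2 close below. The difference was 0.27 with an interval from 0.05 to 0.50 (limma adjusted p = 0.303). Atg4b, the protease with the broadest activity on ATG8 proteins, differed by 0.04 and Atg4d by -0.05.

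The ATG8 family itself held the pair with opposite values. Map1lc3b, which encodes LC3B, measured 13.12, 12.99 and 12.99 in KO and 12.80, 12.77 and 12.59 in WT. Every KO array was above every WT array, and the KO level was 124% of WT, a difference of 0.31 with an interval from 0.10 to 0.53 (SE 0.09, limma adjusted p = 0.25). Map1lc3a, which encodes LC3A, measured 11.54, 11.13 and 11.33 in KO and 11.72, 11.58 and 11.61 in WT. Its KO arrays were all lower, KO 1 only just, and the KO level was 80.9% of WT, a difference of -0.31 with an interval from -0.60 to -0.01 (SE 0.12, limma adjusted p = 0.336). Without KO 2 the difference of Map1lc3a was -0.20.

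Within each array, Map1lc3b minus Map1lc3a was 1.58, 1.86 and 1.66 on the KO arrays and 1.08, 1.19 and 0.97 on the WT arrays. This difference was wider on every KO array than on any WT array, by 0.62 on average. The further Map1lc3b probe sets past the filter differed by less between groups, 0.14 and 0.17 against 0.31. The size of 0.62 thus depends on the set used. The pair was chosen after its values were seen, and the values are given as a description. A difference between probe sets shows unequal change only, not the relative amounts of the transcripts.

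The GABARAP branch showed no such split. Gabarap measured 13.12, 13.02 and 12.93 in KO and 13.12, 12.96 and 13.12 in WT, a difference of -0.05 with an interval from -0.25 to 0.16. Its sign was positive, at 0.02, when the arrays were centred on their medians. Gabarapl2, also called GATE-16, differed by 0.08 with an interval from -0.15 to 0.31, and by -0.01 without WT 1. Gabarapl1 measured 13.58, 13.18 and 13.69 in KO and 13.93, 13.51 and 13.72 in WT. KO 2 was the lowest array, the groups overlapped, and the difference of -0.24 (limma adjusted p = 0.535) was -0.09 without KO 2. The Gabarapl1 set used carries the suffix for probes that can match several transcripts. Its further set, without that suffix, differed by -0.11, also with overlapping groups.

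Among cargo receptors, Sqstm1 encodes p62, which binds ubiquitinated cargo and LC3 and is degraded along with its cargo. It measured 12.88, 12.85 and 12.98 in KO and 13.08, 13.23 and 13.11 in WT. The KO arrays were all below the WT arrays, KO 3 closest to them, and the KO level was 85.0% of WT. The difference was -0.23 with an interval from -0.42 to -0.05 (SE 0.07, limma adjusted p = 0.287). Nbr1, a related receptor that works beside p62, differed by -0.05 and its arrays overlapped. Calcoco1, a receptor for the endoplasmic reticulum, was at 7.20 ± 0.13 in KO livers and 7.04 ± 0.11 in WT livers (SD, n = 3), a difference of 0.16. Array data report transcript and say nothing of the p62 or LC3 proteins, whose turnover is the usual reading of autophagic flux.

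Bnip3, the mitophagy receptor of the outer mitochondrial membrane, measured 13.34, 13.43 and 13.29 in KO and 13.34, 13.04 and 13.12 in WT. WT 1 lay among the KO arrays, and the difference was 0.19 with an interval from -0.06 to 0.43 (limma adjusted p = 0.415). On the probe sets used, genes of tethering and fusion with the lysosome had the smallest median size of difference among the roles, at 0.0417. This role holds 3 genes, and the further probe sets of Stx17, given below, differed by more. Stx17, the SNARE of the finished autophagosome, differed by 0.06, Epg5, a tether to late endosomes, by -0.03, and Tecpr1, a tether that binds the ATG12-ATG5 conjugate, by -0.04. Tecpr1 was the dimmest member on its own probe set, with 4.61 on KO 3.

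**Figure D4:**
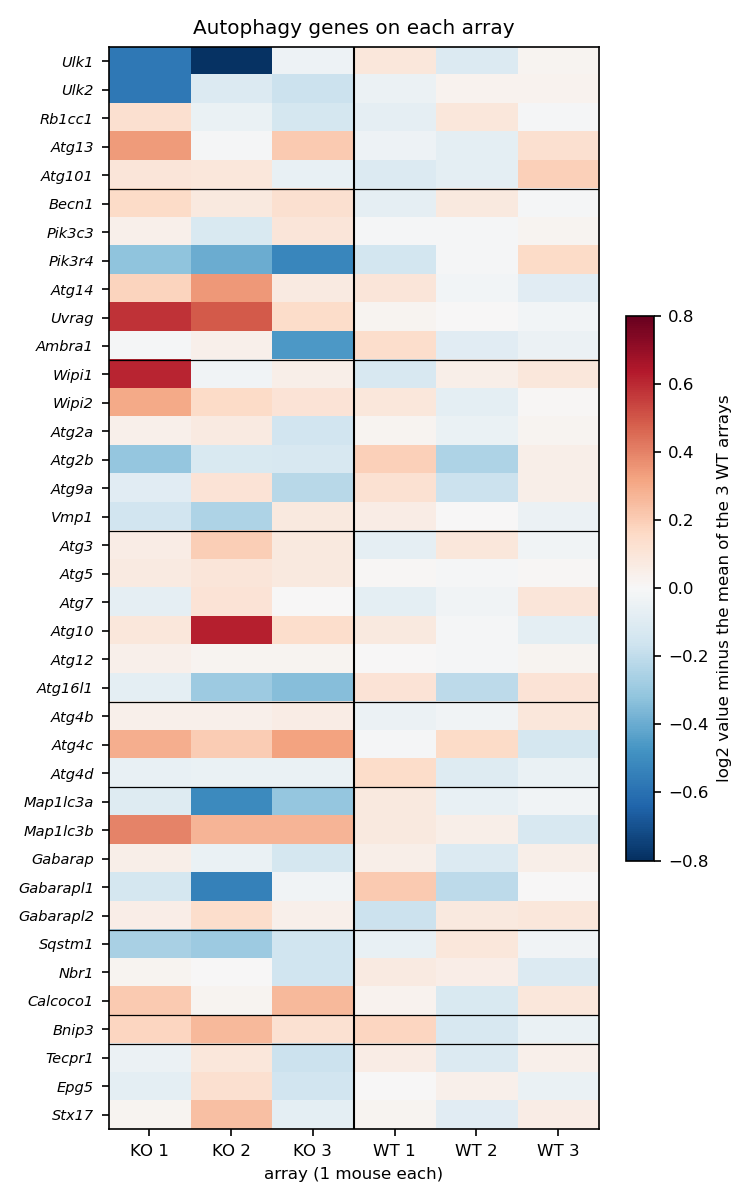
Each array's log2 value minus the mean of the 3 WT arrays (colour, from -0.8 in blue to 0.8 in red), for 38 autophagy genes in rows grouped by role and 6 mice in columns. No array is red or blue throughout, and the strongest colours are single KO values such as Ulk1 on KO 2 and Wipi1 on KO 1.

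The median of the 38 members lay between 8.95 and 9.01 in KO mice and between 8.89 and 8.97 in WT mice. KO 2 was the highest array for 11 members (28.9%, against 16.4% of all genes) and the lowest for 6. KO 3 was the highest for 4 and the lowest for 10 (26.3%, against 16.6% of all genes). Over all genes tested, KO 3 correlated at 0.9865 to 0.9877 with the WT arrays, 0.9857 with KO 1 and 0.9872 with KO 2. Among KO arrays it lay nearest to WT for the macrophage, endothelial and stellate cell lists and the 18S signal. That was not so for hepatocyte markers or pyruvate carboxylase. KO 1 was the lowest for 2 members (5.26%), against 24.3% of all genes. WT 2, the array with skeletal muscle transcripts, was the highest for 1 member, Sqstm1 (2.63% of members against 12.4% of all genes), and the lowest for 8.

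Most members were read by more than 1 probe set on the same arrays. Of 89 probe sets, 31 besides those used passed the filter, for 22 members, and 19 of the 31 had the direction of the brighter one used. For Ulk2, Map1lc3a and Map1lc3b the groups were apart on every probe set past the filter. For Ulk2 the 3 probe sets differed by -0.29, -0.28 and -0.32. For Map1lc3a the 2 probe sets differed by -0.31 and -0.32. This matters for Map1lc3a because the set used carries a suffix for probes that can cross-hybridise, and the other, which does not, was at 9.12 ± 0.15 in KO livers and 9.44 ± 0.12 in WT livers (SD, n = 3). For Map1lc3b the 3 probe sets differed by 0.31, 0.14 and 0.17.

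Other members were read differently by their probe sets. For Stx17 the brightest set differed by 0.06 and the other 3 by 0.22, 0.30 and 0.19. For Rb1cc1 the sets differed by -0.02 and 0.54, and the latter was at 8.63 ± 0.37 in KO livers and 8.09 ± 0.34 in WT livers (SD, n = 3) with groups that did not overlap. Atg12 differed by 0.02 on the brightest set and 0.46 on the next. For Wipi1 the 5 sets past the filter ran from -0.30 to 0.40. The brightest set of Sqstm1 differed by -0.23 and a dim one, near the filter level at 4.12 and 4.01, by 0.12. In all, 6 further sets lay over 0.3 from the one used.

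**Figure D5:**
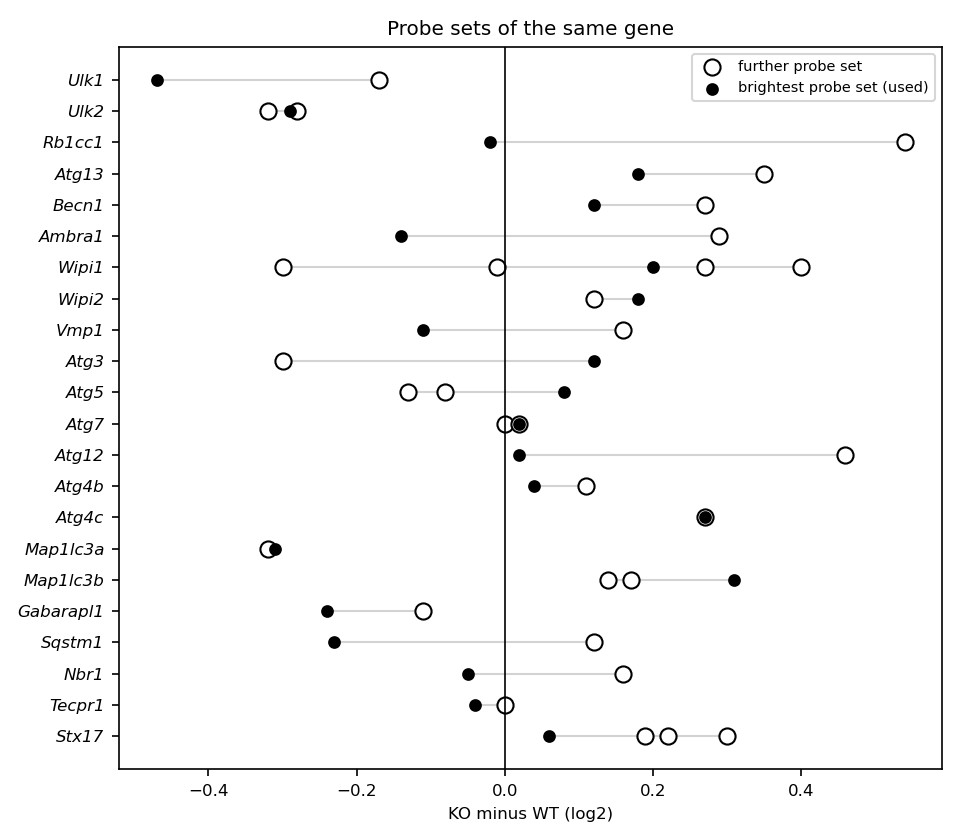
KO minus WT on the log2 scale (x axis) for every probe set past the filter, in the 22 members with more than 1. Filled points are the brightest probe sets, used elsewhere, and open points are further ones. The points lie close together for Ulk2 and Map1lc3a, and on opposite sides of 0 for Rb1cc1, Ambra1, Vmp1 and Atg3, among others.

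No gene of the wider pathway was called either. A list of 51 other autophagy genes had 43 past the filter, of which 0 were called in limma, 17 lay above 0 and 26 below, and the median difference was -0.02. At an unadjusted p under 0.05 there were 7 of 43 (16.3%), and groups did not overlap for 10 (23.3%), beside 14.5% and 20.5% of all genes tested. Zfyve1, or DFCP1, which marks the sites where autophagosomes form, measured 9.58, 9.79 and 9.59 in KO and 9.17, 9.18 and 9.26 in WT. The groups were well apart, and the difference was 0.45 with an interval from 0.25 to 0.66 (limma adjusted p = 0.167).

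Bcl2l13, a mitophagy receptor, was at 9.17 ± 0.10 in KO livers and 9.53 ± 0.09 in WT livers (SD, n = 3), a difference of -0.35 (limma adjusted p = 0.222). Snap29, the SNARE partner of STX17, measured 7.11 ± 0.15 and 6.77 ± 0.07 (SD, n = 3), a difference of 0.34 (limma adjusted p = 0.265). Wdr45, a relative of the WIPI proteins, differed by 0.23, and Tecpr2 by -0.48 with an interval from -0.86 to -0.09. None of these 4 genes was called in any of the 18 alternatives.

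Of 20 regulators, 19 passed the filter and 0 were called in limma, with 5 of 19 (26.3%) at an unadjusted p under 0.05, 1 higher and 4 lower. Over all genes tested that share was 14.5%, with 4.32% higher and 10.1% lower. Tfe3 measured 7.87, 7.56 and 7.65 in KO and 8.16, 8.16 and 8.18 in WT. Every KO array was lower, and the KO level was 72.0% of WT, a difference of -0.47 with an interval from -0.70 to -0.24 (limma adjusted p = 0.19). Tfeb and Mitf, genes of the same family, differed by only -0.07 and -0.01, and their groups overlapped. Tsc2, which restrains mTORC1, differed by -0.32 with overlapping groups. Of AMP-activated kinase, which activates ULK1, none of the 4 genes tested was called in limma. The catalytic subunit genes Prkaa1 and Prkaa2 differed by 0.26 and 0.23, and the regulatory Prkab1 and Prkag1 by -0.27 and -0.09. Crebbp, an acetyltransferase, differed by -0.26.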

How the data were processed

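Liver RNA of 3 p14 KO and 3 WT mice, biological replicates per the labels, was measured on 1 Affymetrix array each. The authors deposited log2 values, 1 per probe set. The submitters' processing notes name GCRMA 2.16.0 and R 2.9.1, without settings. GCRMA corrects for background by probe sequence, brings arrays to a common scale and combines the probes of a set. The log2 scale was read from the values (2.185 to 16.327, with 28.9% at the lowest), and differences of dim probe sets are uncertain.

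Of 45101 probe sets, 34945 had a single gene symbol in the platform annotation. Each gene was read by its brightest probe set on average. KO and WT were compared with limma 3.58.1 in R 4.3.3 (lmFit and eBayes, two-sided), with p adjusted by Benjamini-Hochberg over the 10009 genes past the filter and 95% intervals from the moderated fit. On simulated data for this comparison with 10009 genes, the test found 38% of 50 genes changed 1.5-fold and 74% of 50 changed 2-fold, with 2 false calls in the whole simulation. The simulation also changed 50 genes 4-fold and 50 genes 8-fold, with noise drawn independently for each gene and array. More genes passed there than the 17 called in the real arrays, which eases the adjusted threshold, so these shares may be too high for the real data. The number of arrays limits precision.

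The labels number the mice and do not say whether the numbers pair KO with WT, so the main fit used no pairing. Deviations of same-numbered KO and WT arrays from their group means correlated at -0.0856, -0.0789 and -0.141 over genes. Deviations within a group of 3 are not independent, so these values cannot show whether mice were paired. Alternatives covered the filter, scaling, probe set choice, variance model, array weights, a replicate block and arrays left out. Members and lists were chosen with earlier results of these data known. Named members were those called, then those with the smallest p up to 20, with all ATG8 family genes, Sqstm1 and Bnip3; other members are given briefly to account for all. Further genes were the 5 with the smallest p in each list. Tfeb, Mitf, Prkaa1 and Prkag1 are given beside related genes. Figures were drawn with matplotlib 3.10.9.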

Additional observations from a re-analysis of the deposited data

How the results depend on the processing

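With 3 mice a group, 1.5-fold differences were often missed in simulation, so the absence of calls among the members does not show that their transcripts were equal. In limma the count of members called stayed at 0 in 17 of 18 alternatives; with arrays left out in turn it was 0 to 1, the 1 being Uvrag without KO 3. The count of other autophagy genes and regulators called was 0 throughout. Members at an unadjusted p under 0.05 numbered 4 to 8 over the alternatives, beside 7.39% (no filter) to 18.2% (without KO 3) of all genes. Members with non-overlapping groups numbered 10 to 14 with all arrays (12% to 24.8% of all genes), 11 to 17 with 1 left out (27.5% to 37.4% of all genes; 16 without KO 2, beside 30.3%, and 17 without WT 2, beside 32.7%) and 21 on the 4 arrays besides KO 3 and WT 2, where 49.4% of all genes did not overlap. The member median was -0.02 to 0.03 with 1 array left out, and 0.08 after median centring, when that of all genes was 0.03.

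The number of all genes called was 3 with no filter, 25 with values below 4 set to 4, 10 with every probe set tested, 3 without moderation of the variance, 3 on those 4 arrays, and 1 to 140 with 1 array left out (6 without KO 1, 1 without KO 2, 140 without KO 3, 1 without WT 1, 1 without WT 2, 5 without WT 3). With the replicate block in limma 0 genes were called, 1235 having an unadjusted p under 0.05, and 4 members had one. In deviations from the group means, no KO array correlated best with the WT array of its own number. That does not settle whether mice were paired. Lamtor2 stayed at -1.23 to -1.17 with 1 array left out, but its limma adjusted p was above 0.05 without KO 2 (0.0691), WT 1 (0.114), WT 2 (0.114) or WT 3 (0.0505), with the replicate block (-1.19, 0.116) and when neither KO 3 nor WT 2 was used (-1.20, 0.114). Fewer arrays or residual degrees of freedom entered these fits. Fewer arrays also entered those without KO 1 (limma adjusted p = 0.0436) or KO 3 (0.0158), where Lamtor2 was still called. The cause was not tested.

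Of 22 named members, 18 kept their sign in every alternative. The sign turned for Gabarap with median centring (0.02), for Atg3 (-0.09) and Atg5 (-0.04) with the mean of probe sets, and for Gabarapl2 without WT 1 (-0.01). The cause was not tested beyond the differing probe sets of Atg3 and Atg5. Leaving out 1 array moved these members over 1.5 times: without KO 1, Ulk2 (-0.15), Atg13 (0.09) and Gabarap (-0.09); without KO 2, Ulk1 (-0.31), Map1lc3a (-0.20), Atg14 (0.13), Atg10 (0.12), Atg3 (0.07), Gabarapl1 (-0.09) and Gabarapl2 (0.04); without WT 1, Atg2b (-0.09), Gabarapl1 (-0.13) and Gabarap (-0.02); without WT 2, Bnip3 (0.12), Calcoco1 (0.10), Atg2b (-0.31) and Gabarap (-0.10); without WT 3, Gabarap (-0.02), which was at 0 without KO 3. The regulator Prkab1 was at -0.17 without KO 1. With the mean of probe sets Sqstm1 was at -0.06.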
